A study of Saccharomyces cerevisiae with 4 samples.

Results

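The transcripts of 10 copper-handling genes of budding yeast, each measured by 1 probe set, are described across 4 arrays: the uptake transporter genes CTR1 and CTR3, the metalloreductase gene FRE7, the vacuolar transporter gene CTR2, the metallothionein genes CUP1-1 and CRS5, the superoxide dismutase gene SOD1 with its copper chaperone gene CCS1, the ATPase gene PCA1 and the activator gene CUP2. They were chosen by gene symbol in the array annotation, out of 5449 yeast genes with 5498 probe sets that name exactly 1 gene. Every culture was the haploid laboratory strain BY4741, mating type a, with the alleles ura3∆0, leu2∆0, his3∆1 and met15∆0. All 4 cultures carried a p425-GPD plasmid with the LEU2 marker, and grew at 30 °C in synthetic medium lacking leucine until mid-log phase. In 2 cultures the plasmid was empty and in the other 2 it held RNase H1, an enzyme that removes the RNA strand of RNA-DNA hybrids, behind the constitutive GPD promoter. The question is how transcript levels shift once that insert is present. The labels do not give the species of the insert, and each culture is a separate biological replicate by its label.

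Copper enters yeast as reduced copper: surface reductases such as Fre1 and Fre7 reduce it, and Ctr1 and Ctr3 carry it across the plasma membrane. When copper is scarce, the activator Mac1 turns on CTR1, CTR3, FRE1 and FRE7. When copper is in excess, the activator Cup2, also named Ace1, turns on CUP1-1, CRS5 and SOD1. Inside the cell, Ccs1 hands copper to the dismutase Sod1, Atx1 hands it to the secretory pathway, where it reaches the iron oxidase Fet3, and Cox17 hands it on for cytochrome oxidase.

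Signals are on the linear MAS5 scale, and summed to between 6889760 and 7097920 per array. RNH1, the yeast gene for RNase H1, had signals of 320 and 292 with the empty vector and 303 and 307 with the RNase H1 vector, so its probe set did not separate the groups. Of the labelled deletions, URA3 signals lay between 0.183 and 4.04 and MET17 signals between 2.33 and 9.02, while HIS3, of which his3∆1 removes only an internal part, lay between 3288 and 4098. The 7 markers of mating type a summed to 27588 and 27827 with the empty vector and 14179 and 13322 with the RNase H1 vector. Of the 7, 3 passed the test as lower, against 0.347% of all tested probe sets. The 4 markers of mating type alpha summed to between 362 and 675 in all arrays. Of these, STE3 had signals of 33.6 and 41.5 with the empty vector and 138 and 75.6 with the RNase H1 vector, without passing. In the other 3 the groups overlapped. The 3' to 5' ratio of actin signal was 1.34 in both empty vector arrays and 1.68 and 1.48 in RNase H1 vector arrays 1 and 2. The arrays of the RNase H1 vector also differed more from each other, with 1550 of 5470 probe sets over 1.5-fold apart against 182 for the empty vector. The part of these differences in the results on copper genes was not tested.

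Among the copper genes, PCA1 was 4.11-fold higher and CUP1-1 1.29-fold higher with the RNase H1 vector, and these were the 2 that passed the test. The plasma membrane transporter genes CTR1 and CTR3 had nearly level signals. Their groups, like those of CTR2, CUP2 and SOD1, did not overlap, and none of these genes passed. All 10 probe sets lay above the filter on dim probe sets. In limma's moderated test on log2 signals, with Benjamini-Hochberg adjustment over 5470 probe sets and a threshold of 0.05, 2 of 10 passed as higher, against 1.13% of all tested probe sets. None passed as lower, against 0.347% of all. At an unadjusted p under 0.05 there were 5 of 10, 4 higher and 1 lower, against 23.7% of all. The 2 groups of arrays did not overlap in 7 of 10, 5 higher and 2 lower, against 58.8% of all. The members' median log2 difference was 0.20, against −0.02 over all tested probe sets. With 2 arrays against 2, an exact two-sided permutation test cannot go below p = 0.333, so adjusted p-values below come from the limma model alone.

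**Figure D1:**
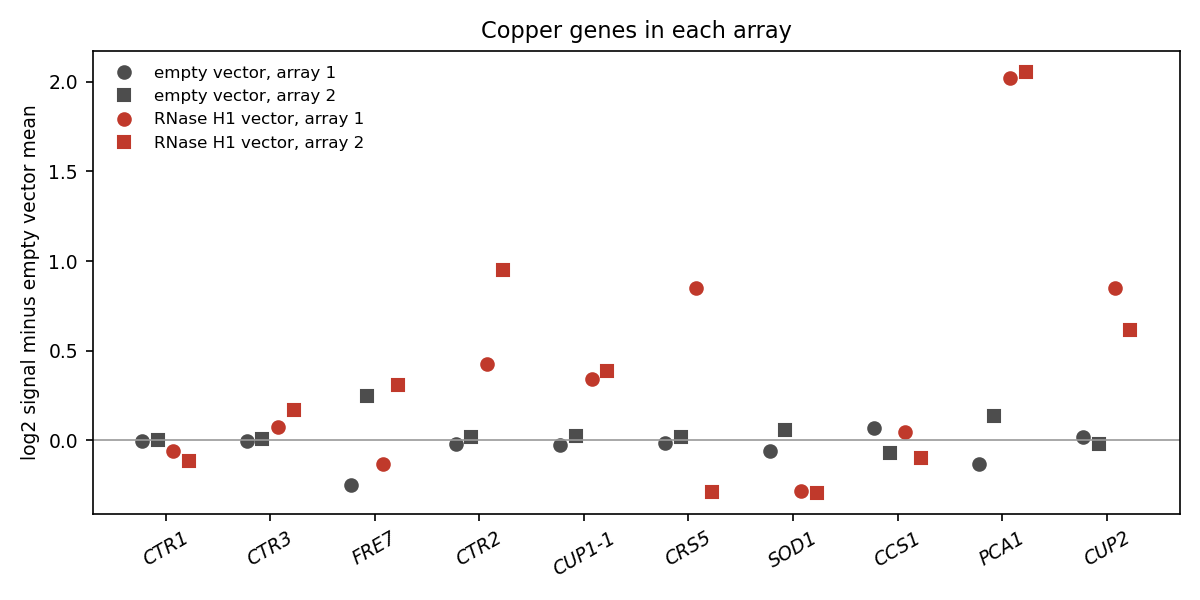
Log2 signal of each copper gene in each array, minus the mean of its 2 empty vector arrays. Grey points are empty vector arrays, red points RNase H1 vector arrays, circles array 1 and squares array 2. PCA1 lies about 2 log2 units up in both red arrays, while CRS5 has 1 red array above the grey pair and 1 below it.

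CTR1 encodes the main high-affinity copper transporter of the plasma membrane. Its signals were 471 and 473 with the empty vector and 454 and 435 with the RNase H1 vector. Both RNase H1 vector arrays lay slightly below the empty vector pair, by a log2 difference of −0.09 ± 0.16 (SE, n = 2 against 2, adjusted p = 0.766). The 95% interval of that difference ran from 0.701-fold to 1.26-fold, so changes larger than that lie outside it.

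CTR3 encodes a second high-affinity copper transporter of the plasma membrane. In strains derived from S288C, such as BY4741, a Ty2 retrotransposon upstream of CTR3 keeps its transcription low. Its signals were 79.8 and 80.5 with the empty vector and 84.5 and 90.3 with the RNase H1 vector. The groups did not overlap, with both RNase H1 vector arrays slightly above the empty vector pair. The log2 difference was 0.12 ± 0.24 (adjusted p = 0.784), with a 95% interval from 0.702-fold to 1.69-fold, and it turned to −0.10 after quantile normalization and −0.02 after cyclic loess.

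FRE7 belongs to the family of ferric and cupric reductases and is a Mac1 target. Its probe set was dim, with signals of 8.58 and 12.1 with the empty vector and 9.30 and 12.6 with the RNase H1 vector, against a filter value of 2.13 taken from the S. pombe probe sets on the same array. The groups overlapped, and replicate arrays lay 1.41-fold and 1.36-fold apart. At this signal the 95% interval of the difference was wide, from 0.417-fold to 2.71-fold (adjusted p = 0.933). It takes in both a fall and a rise, so the direction was not resolved.

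CTR2 encodes the transporter that releases copper from the vacuole into the cytosol. Its signals were 1359 and 1400 with the empty vector and 1852 and 2663 with the RNase H1 vector. Both RNase H1 vector arrays were above the empty vector pair, but they lay 1.44-fold apart from each other. The log2 difference of 0.69 ± 0.20, a 1.61-fold ratio, did not pass (adjusted p = 0.155). It was 0.43 without RNase H1 vector array 2 and 0.95 without array 1, and both of these fits, which take their spread from the empty vector pair alone, passed.

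**Figure D2:**
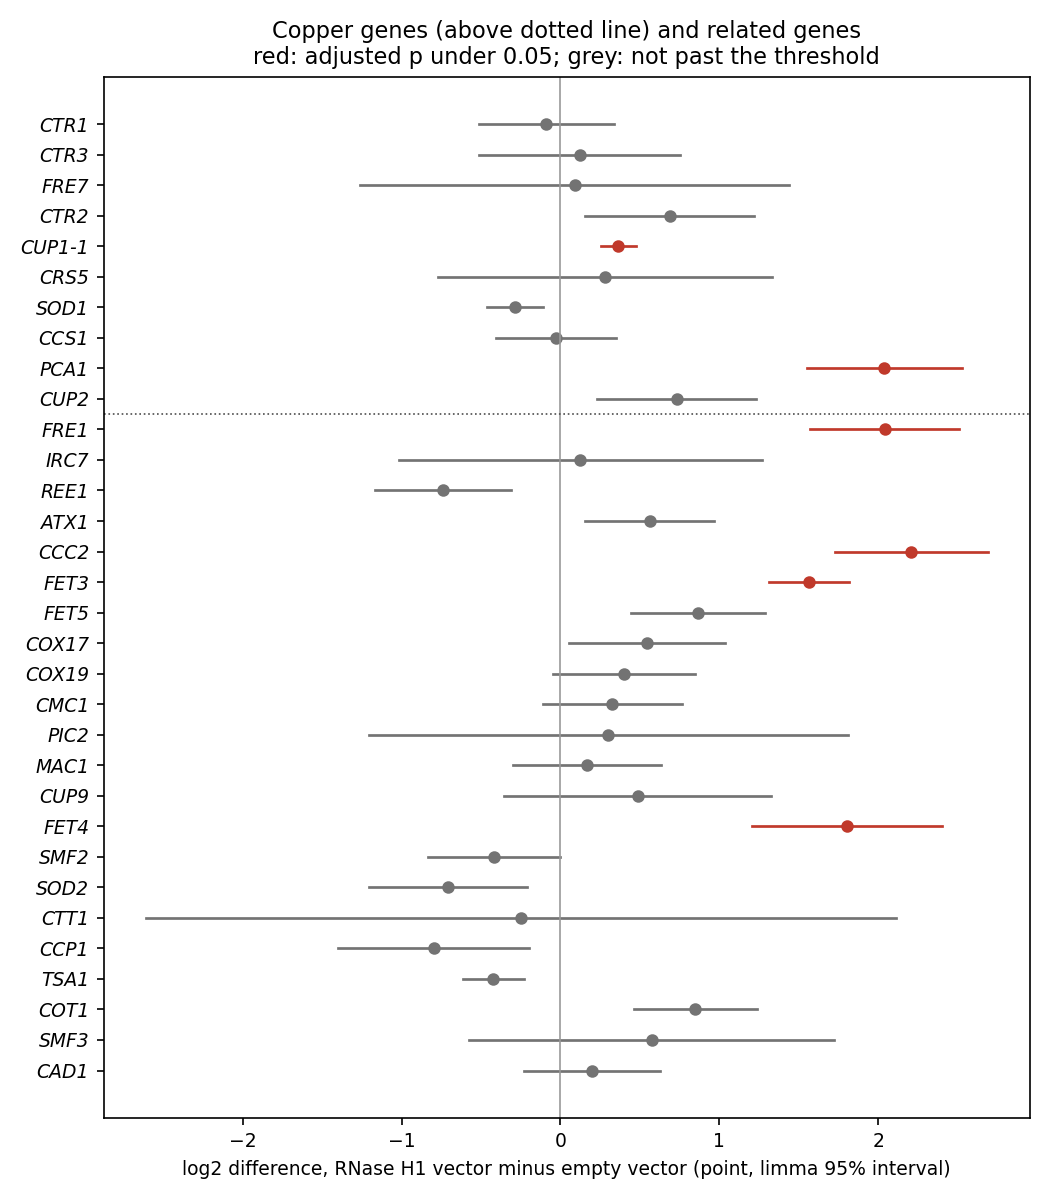
Log2 difference, RNase H1 vector minus empty vector, with its 95% interval from limma, for the 10 copper genes and 22 related genes. Red marks an adjusted p under 0.05: PCA1 and CUP1-1 among the copper genes, and FRE1, CCC2, FET3 and FET4 among the related ones.

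CUP1-1 encodes the main copper metallothionein, a small cysteine-rich protein that binds excess copper, and lies in a tandem repeat with its copy CUP1-2. Its probe set is of the kind the array design marks as shared by several transcripts, and CUP1-2 has no other probe set in the annotation, so the signal stands for all CUP1 copies together. Its signals were 11744 and 12144 with the empty vector and 15139 and 15619 with the RNase H1 vector. The groups did not overlap, and replicates lay 1.03-fold apart in each group. CUP1-1 rose 1.29-fold (log2 0.36 ± 0.04, adjusted p = 0.0404), with a 95% interval from 1.19-fold to 1.39-fold. It did not pass after median scaling (adjusted p = 0.126), without an intensity trend (0.237), without empty vector array 1 (0.139) or without empty vector array 2 (0.0807), and its log2 difference was 0.55 after cyclic loess. On both RNase H1 vector arrays no other probe set of the 10928 had a higher signal, so CUP1-1 stood at the top of the measured range. Whether the signal was near its ceiling was not tested.

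CRS5 encodes the second metallothionein and is listed as a pseudogene in the R64 annotation of the reference strain. Its signals were 421 and 430 with the empty vector and 766 and 348 with the RNase H1 vector. RNase H1 vector array 1 was above the empty vector pair and array 2 below it, a 2.20-fold gap within the group. The log2 difference of 0.28 ± 0.40 did not pass (adjusted p = 0.699), and its direction depended on the array: it was 0.85 without array 2 and −0.29 without array 1. The metallothionein genes thus differed in spread, with 1.03-fold between RNase H1 vector arrays for CUP1-1 and 2.20-fold for CRS5.

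SOD1 encodes the copper- and zinc-dependent superoxide dismutase of the cytosol. Its signals were 6983 and 7578 with the empty vector and 5989 and 5939 with the RNase H1 vector. Both RNase H1 vector arrays lay below the empty vector pair and within 1.01-fold of each other. The log2 difference of −0.29 ± 0.07, 1.22-fold lower, did not pass (adjusted p = 0.109), and it was −0.17 after quantile normalization and −0.15 after cyclic loess. CCS1, whose protein loads copper into Sod1, had signals of 1212 and 1102 with the empty vector and 1193 and 1081 with the RNase H1 vector. Its groups overlapped almost completely (log2 difference −0.03 ± 0.14, adjusted p = 0.932), and the 95% interval ran from 0.756-fold to 1.28-fold.

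PCA1 encodes a P-type ATPase that pumps metal ions out of the cell; it exports cadmium, and the allele of many laboratory strains has lost this activity. Its signals were 179 and 216 with the empty vector and 799 and 818 with the RNase H1 vector. Every RNase H1 vector array was far above the empty vector pair, and the pair itself lay 1.20-fold apart. PCA1 rose 4.11-fold (log2 2.04 ± 0.19, adjusted p = 0.0258), with a 95% interval from 2.93-fold to 5.77-fold, and 98.9% of the tested probe sets had a smaller log2 difference. It did not pass without an intensity trend (adjusted p = 0.0637) or without empty vector array 1 (adjusted p = 0.0758), where its log2 difference was 1.91.

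PCA1 lies on chromosome II between SUL1, a high-affinity sulphate permease gene, and PHO89, a sodium and phosphate cotransporter gene, and both neighbours rose too. SUL1 had signals of 10.7 and 11.3 with the empty vector and 184 and 242 with the RNase H1 vector (log2 difference 4.26 ± 0.31, adjusted p = 0.0191). Its empty vector signals were dim, and its log2 difference was 3.07 with a pseudocount of 16 and 1.88 with a pseudocount of 64. PHO89 had signals of 97.9 and 72.8 with the empty vector and 2530 and 4215 with the RNase H1 vector (log2 difference 5.27 ± 0.32, adjusted p = 0.0115), and did not pass without an intensity trend (adjusted p = 0.0546). The next tested genes outward, VBA2 and MAL33, did not pass, with log2 differences of 0.39 and 0.59. Over all chromosomes, SUL1, PCA1 and PHO89 were the 1 run of 3 tested genes in a row that all passed as higher. The 40 nearest annotated neighbours of the copper genes, 2 on each side, held 31 tested genes. Of these 31, 2 passed as higher, SUL1 and PHO89, against 1.13% of all tested probe sets. None passed as lower, against 0.347%. These neighbours were singled out after their values were seen.

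**Figure D3:**
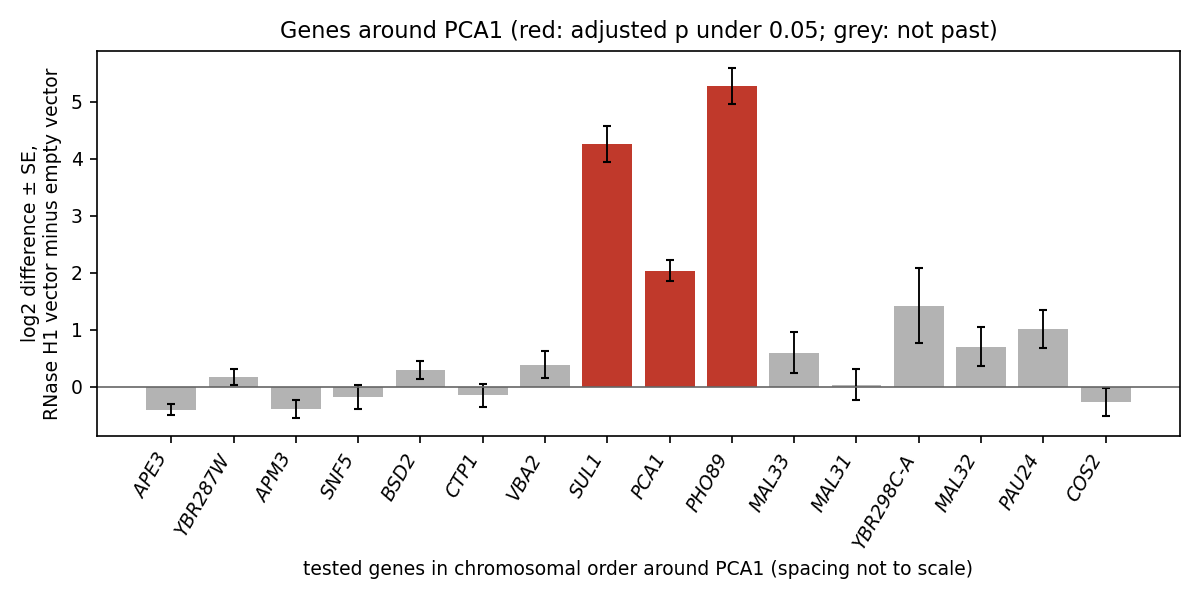
Log2 difference ± SE for the tested genes around PCA1 on chromosome II, in their order along the chromosome and not to scale. Red bars, SUL1, PCA1 and PHO89, have an adjusted p under 0.05, and the grey bars beside them do not.

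CUP2 encodes the activator that senses copper and turns on the metallothionein genes. Its signals were 232 and 227 with the empty vector and 413 and 352 with the RNase H1 vector. The groups did not overlap, with RNase H1 vector array 1 the highest. The 1.66-fold difference (log2 0.73 ± 0.19) did not pass (adjusted p = 0.126), and the 95% interval before adjustment ran from 1.17-fold to 2.35-fold. The 3 genes known as Cup2 targets did not share a direction: CUP1-1 rose, CRS5 was on either side of the empty vector pair, and SOD1 had lower signals without passing.

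**Figure D4:**
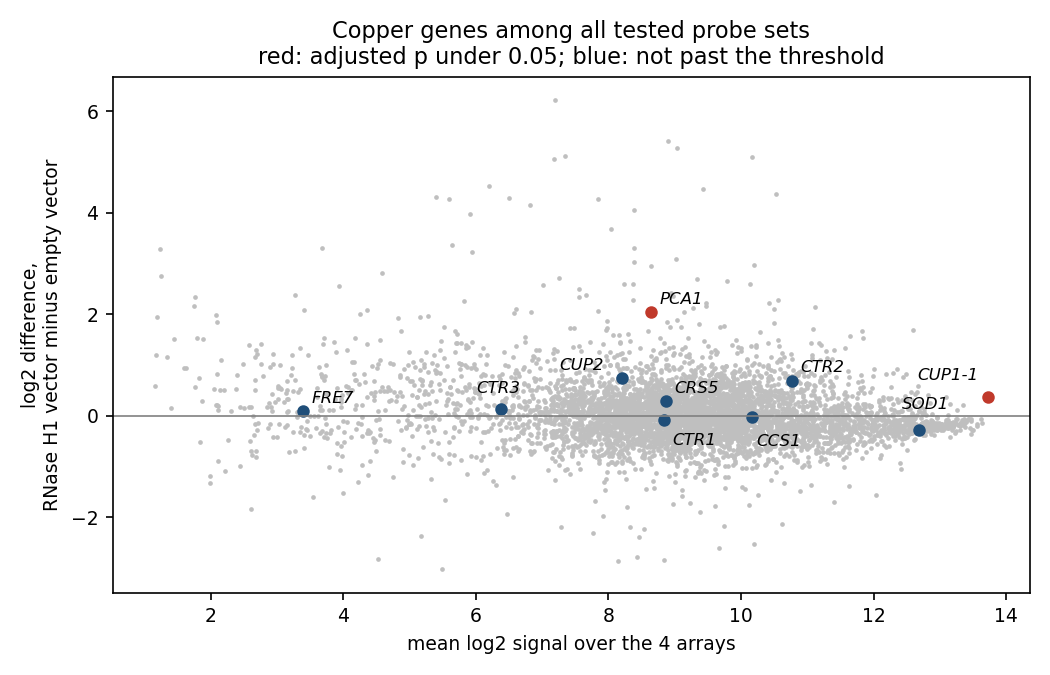
Log2 difference against mean log2 signal for all 5470 tested probe sets (grey), with the copper genes in red where they passed and in blue where they did not. FRE7 lies in the dim, wide part of the cloud, CUP1-1 at its bright end, and PCA1 above most probe sets of like signal.

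Genes that share a pathway with these were counted whole. Of 37 tested genes in 6 lists, 4 passed as higher, against 1.13% of all tested probe sets, and 0 as lower, against 0.347%. An unadjusted p under 0.05 was reached by 9 as higher and 6 as lower, against 23.7% of all tested probe sets in either direction. The median log2 difference of the 37 was 0.18. Without an intensity trend 0 of the 37 passed, and with 1 array left out between 3 and 15 passed as higher and between 0 and 11 as lower. Among the other Mac1 targets, FRE1, the main surface reductase for iron and copper, which also answers to the iron activator Aft1, had signals of 255 and 303 with the empty vector and 1094 and 1199 with the RNase H1 vector. FRE1 rose 4.12-fold (log2 2.04 ± 0.18, adjusted p = 0.0242), but did not pass without an intensity trend (adjusted p = 0.0637). IRC7 and REE1 did not pass, with log2 differences of 0.13 and −0.74. Of these 3 genes, 1 passed as higher, against 1.13% of all tested probe sets, and 0 as lower, against 0.347%. MAC1 itself had signals of 311 and 307 with the empty vector and 331 and 364 with the RNase H1 vector (adjusted p = 0.595).

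In the secretory route, 2 of 4 genes passed as higher, against 1.13% of all tested probe sets, and 0 as lower, against 0.347%. CCC2, the ATPase that pumps copper into the Golgi, rose from 309 and 356 to 1683 and 1397 (log2 2.21 ± 0.18, adjusted p = 0.0240). FET3, the copper-containing oxidase of high-affinity iron uptake, rose from 1769 and 1955 to 5457 and 5541 (log2 1.56 ± 0.10, adjusted p = 0.0116). The chaperone gene ATX1 and FET5, an oxidase of the vacuole, did not pass, with log2 differences of 0.56 and 0.86. Without an intensity trend neither CCC2 (adjusted p = 0.0637) nor FET3 (adjusted p = 0.0765) passed. FET3, CCC2 and FRE1 are also known as genes of the iron regulon. Of 10 genes that bring copper to cytochrome oxidase, 0 passed, against 1.13% of all tested probe sets as higher and 0.347% as lower. An unadjusted p under 0.05 was reached by 1 as higher and 0 as lower, against 23.7% of all tested probe sets in either direction. That 1 was COX17, at a log2 difference of 0.54 ± 0.19, which was 0.34 without RNase H1 vector array 1 and 0.75 without array 2. COX19 and CMC1 did not pass, with log2 differences of 0.40 and 0.33, and the list's median was 0.30. PIC2, the mitochondrial copper carrier, had signals of 1210 and 1206 with the empty vector and 2728 and 813 with the RNase H1 vector, so its direction differed between the RNase H1 vector arrays.

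Of 5 tested regulators and other metal transporter genes, 1 passed as higher, against 1.13% of all tested probe sets. None passed as lower, against 0.347%. The 1 that passed was FET4, a low-affinity iron transporter that also carries copper. SMF2 and CUP9 did not pass, with log2 differences of −0.42 and 0.49. FET4 rose from 295 and 426 to 1246 and 1231 (log2 1.80 ± 0.23, adjusted p = 0.0493), and did not pass after quantile normalization (0.0501), after median scaling (0.0530), with a pseudocount of 64 (0.0511), with robust eBayes (0.0524), without an intensity trend (0.104) or without empty vector array 1 (0.120). Of 10 other genes of superoxide and peroxide defence, 0 passed, against 1.13% of all tested probe sets as higher and 0.347% as lower. An unadjusted p under 0.05 was reached by 1 as higher and 4 as lower, against 23.7% of all tested probe sets in either direction. The median log2 difference of the list was −0.35. SOD2, the manganese-dependent dismutase of mitochondria, had a log2 difference of −0.71 ± 0.19, and CCP1, a mitochondrial peroxidase, one of −0.80 ± 0.23. TSA1, an abundant peroxiredoxin, had one of −0.42 ± 0.07, which was −0.29 after quantile normalization and −0.26 after cyclic loess. Without RNase H1 vector array 2, SOD2 was at −0.46 and CCP1 at −0.49, and without array 1 at −0.95 and −1.11. CTT1, the cytosolic catalase, had signals of 213 and 282 with the empty vector and 527 and 80.9 with the RNase H1 vector, on either side of the empty vector pair like CRS5. Of 5 other genes of metal resistance, 0 passed, against 1.13% of all tested probe sets as higher and 0.347% as lower. An unadjusted p under 0.05 was reached by 1 as higher and 0 as lower, against the same 23.7%. That 1 was COT1, a vacuolar transporter of zinc and cobalt, at a log2 difference of 0.85 ± 0.15. SMF3 and CAD1 had log2 differences of 0.58 and 0.20.

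**Figure D5:**
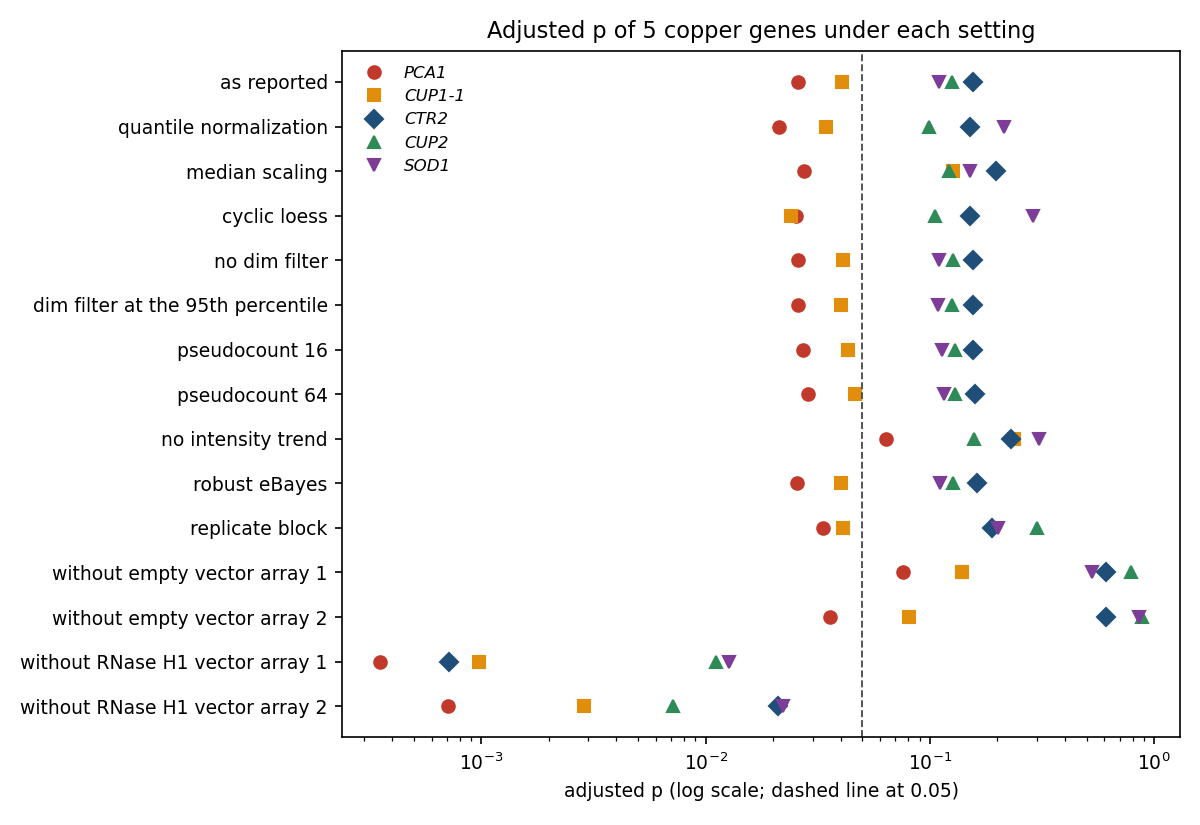
Adjusted p of 5 copper genes under the reported fit and 14 other settings, on a log axis with a dashed line at 0.05. PCA1 and CUP1-1 lie left of the line in most settings, CTR2, CUP2 and SOD1 to its right except in the fits that leave out an RNase H1 vector array.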

How the data were processed

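Total RNA (150 ng, amplified for 8 h) of 4 yeast cultures was hybridised to Affymetrix Yeast Genome 2.0 arrays. The deposited signal intensities came from the authors' run of Expression Console with MAS5, per the submitters' processing notes, whose scaling target the labels do not state. Log2 of the deposited intensity was tested as it stood, without further scaling. The table held 0 other columns per sample.

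Gene names came from the platform annotation, updated through the gene identifiers of RefSeq R64; all 10 members matched. Of 5498 probe sets of 1 yeast gene, 28 were left out as dim (mean log2 signal not above the 75th percentile of S. pombe probe sets, a signal of 2.13). The RNase H1 vector was compared with the empty vector, two-sided, by limma 3.58.1 in R 4.3.3 (lmFit, eBayes with an intensity trend) and Benjamini-Hochberg adjustment over 5470 probe sets, threshold 0.05. The steps were tested on simulated data. Array number limits precision, and bulk RNA does not tell a change in all cells from one in some of them.

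The members and lists were chosen with earlier results of these data known. The rule names all members, the genes of 6 related lists that passed, the 3 with the smallest p in each list, and, for each member that passed, the 3 probe sets with the nearest profile. ATX1, MAC1, CTT1, PIC2 and chromosomal neighbours were named after their values were seen. Planned searches of promoters and proteins were not run, since no sequences were used here.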

Additional observations from a re-analysis of the deposited data

How the results depend on the processing

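The calls, the members and the related, neighbouring and nearest-profile genes named here were recomputed under 14 planned settings and 1 added after seeing the data. CTR1 kept its direction and stayed short of the threshold in all 15. After median scaling 1 member passed as higher, with CUP1-1 at 0.33 (adjusted p = 0.126). Without an intensity trend 0 members passed, with CUP1-1 at 0.36 and PCA1 at 2.04, and 7 probe sets in all were called higher and 0 lower, against 62 and 19 with the trend; an unadjusted p under 0.05 was reached without the trend by 626 as higher and 495 as lower, and by 4 and 0 members. After quantile normalization CTR3 was at −0.10 and FRE7 at −0.10, and after cyclic loess at −0.017 and −7.04e-05; the cause of these reversals was not tested. Probe sets passing as lower numbered 12 with a pseudocount of 64 and 12 with robust eBayes. Equal replicate numbers are not stated to share a day or batch. With the replicate number as a block, 2 members passed as higher and 0 as lower, with 66 and 16 probe sets in all, and no member's call changed. The deviations of equally numbered arrays correlated at −0.30, and with the crossed pairing as a block 3 members passed as higher (CTR2, at 0.69, being the addition) and 1 as lower (SOD1, at −0.29), with 483 and 454 probe sets in all.

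When each array was left out in turn, members passing as higher ranged from 0 to 5 and as lower from 0 to 1, and probe sets from 54 to 1184 higher and from 10 to 1604 lower. The high counts came without an RNase H1 vector array, where the spread is taken from the empty vector pair alone and the lone array is assumed to vary like it, so passing there is no sign of stability. Without empty vector array 1, 0 members passed, and without empty vector array 2, 1 did. The log2 difference ranged from 1.91 to 2.17 for PCA1, from 0.34 to 0.39 for CUP1-1, from 0.43 to 0.95 for CTR2, from 0.61 to 0.85 for CUP2 and from −0.35 to −0.23 for SOD1. It changed sign for FRE7 (−0.16 to 0.34, and −0.13 without RNase H1 vector array 2), CCS1 (−0.097 to 0.046, and 0.04 without empty vector array 1), CRS5 (−0.29 to 0.85), IRC7 (−0.48 to 0.73), PIC2 (−0.57 to 1.18), SMF3 (−0.068 to 1.22) and CTT1 (−1.60 to 1.10). Low signal limits FRE7, whose 2 groups both lay under 13.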

Other observations

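CUP1-1 differed in direction from most of the brightest probe sets. Of 104 tested probe sets with an empty vector signal above 8000, a value chosen after seeing the data, 5 had a log2 difference above 0 and CUP1-1 had the highest of them, 0.36, while their median was −0.18. Of these 104, 1 passed as higher, CUP1-1, which is near the share of 1.13% over all tested probe sets. As lower, 0 passed, against 0.347%.

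The 3 probe sets whose centred log2 signals lay nearest to those of CUP1-1 over the 4 arrays were SMD2, MSK1 and MDM32, at Euclidean distances between 0.0206 and 0.0262. Their log2 differences of 0.38, 0.36 and 0.37 were close to that of CUP1-1, and none of the 3 passed, with adjusted p-values between 0.229 and 0.258. Their SEs lay between 0.15 and 0.17, against 0.04 for CUP1-1, since the intensity trend of the model assigns a smaller spread to brighter probe sets. The 3 nearest to PCA1 were FRE1, at a distance of 0.0716, BAG7 at 0.130 and VMR1 at 0.205. VMR1, a vacuolar ABC transporter gene, had signals of 256 and 292 with the empty vector and 1049 and 961 with the RNase H1 vector (log2 difference 1.88 ± 0.17, adjusted p = 0.0263), and did not pass without an intensity trend (adjusted p = 0.0637) or without empty vector array 1 (adjusted p = 0.0816). BAG7 had dim signals, of 8.78 and 11.3 with the empty vector and 39.8 and 45.0 with the RNase H1 vector. Its log2 difference of 2.09 ± 0.40 did not pass (adjusted p = 0.0857), and was 0.52 with a pseudocount of 64.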
